A study of Mus musculus with 28 samples.

Results

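The genes examined are 8 C-type lectin receptor genes of mouse chromosome 6, Clec4n, Clec4d, Clec4e, Clec4a1, Clec4a2, Clec4a3, Clec7a and Clec12a. They were chosen by symbol from the 55450 genes of the deposited expression table, and all 8 were found there. The question is how their RNA levels changed while Pre-B cells were converted to macrophages. The cells are C10, a HAFTL derived mouse Pre-B cell line with a C/EBPα-ER transgene, in which C/EBPα is fused to the hormone-binding part of the estrogen receptor. RNA-seq was made at 0h and at 1h, 12h and 48h after 100 nM β-estradiol was added together with 10 nM IL-3 and CSF-1, with 3 biological replicates at each time, 12 libraries in all. The libraries share the line and the transgene, and a line without the transgene or a culture without hormone was not analysed here, so time in culture, the cytokines and C/EBPα cannot be told apart. The labels call the replicates biological and say no more of their origin, so the p-values measure the spread between these samples.

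C-type lectin receptors are membrane proteins of myeloid cells that bind carbohydrate or lipid structures of fungi, bacteria and damaged cells. The activating receptors pass a signal to the kinase SYK, either through a motif in their own tail, as dectin-1 (Clec7a) does, or through the adaptor FcRγ (Fcer1g), as dectin-2 (Clec4n), MCL (Clec4d) and Mincle (Clec4e) do, and from SYK to CARD9 and NF-κB. DCIR (Clec4a2) and MICL (Clec12a) instead carry inhibitory motifs that recruit phosphatases such as SHP-1 (Ptpn6).

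In GENCODE M21, on the mm10 build, the 6 Clec4 genes lie together between chr6:122921848 and chr6:123289870, and Clec12a (chr6:129342691-129365303, plus strand) and Clec7a (chr6:129461591-129472779, minus strand) lie near each other, with 5 genes between them, further along the chromosome. Clec4a1 starts the Clec4 cluster (chr6:122921848-122934619), followed by Clec4a3 (chr6:122952515-122969875), Clec4a2 (chr6:123106428-123143999), Clec4n (chr6:123229843-123247021) and Clec4d (chr6:123262111-123275265), all on the plus strand. Clec4e (chr6:123281789-123289870) closes it on the minus strand. GENCODE labels 7 of the 8 as protein coding and Clec7a as a polymorphic pseudogene. Clec4a1, Clec4a2 and Clec4a3 are paralogs, and reads that their transcripts share are divided between them by estimation in RSEM, so their low values are uncertain.

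RefSeq promoters were at hand for 7 of the 8 genes, 9 promoters in all, and each was searched for letters recognised by C/EBP factors (TTGCNNAA), PU.1 (GAGGAAG) and AP-1 (TGANTCA) and for an NF-κB motif, on both strands, in the window from 250 bases before to 50 bases after the start. C/EBP letters, shown because C/EBPα is the induced factor, were found for Clec12a and Clec4e, and 10.8% of all 32851 promoters hold them. PU.1 letters were found for Clec12a, Clec4d and Clec4a1 (13.6% of all promoters) and AP-1 letters for Clec12a and Clec4a2 (7.81%), and the NF-κB motif was in none of the 9 (0.411%). No searched motif was in either promoter of Clec7a or Clec4a3. The 250 bases before the RefSeq start are shown, 5′ to 3′ on the strand of the gene and in build GRCm38.p6, for the 4 members described most fully below, with motif matches in capitals.
Clec12a, chr6:129349994-129350243, plus strand: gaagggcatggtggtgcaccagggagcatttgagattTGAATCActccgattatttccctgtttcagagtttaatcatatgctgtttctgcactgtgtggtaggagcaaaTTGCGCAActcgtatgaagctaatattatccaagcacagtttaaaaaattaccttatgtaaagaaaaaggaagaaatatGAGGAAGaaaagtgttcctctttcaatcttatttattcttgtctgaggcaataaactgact
Clec4e, chr6:123289872-123290121, minus strand: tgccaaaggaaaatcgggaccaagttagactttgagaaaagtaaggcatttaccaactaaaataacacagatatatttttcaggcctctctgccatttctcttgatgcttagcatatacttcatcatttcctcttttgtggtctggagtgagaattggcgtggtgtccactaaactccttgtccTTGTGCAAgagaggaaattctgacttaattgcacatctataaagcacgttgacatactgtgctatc
Clec4d, chr6:123261857-123262106, plus strand: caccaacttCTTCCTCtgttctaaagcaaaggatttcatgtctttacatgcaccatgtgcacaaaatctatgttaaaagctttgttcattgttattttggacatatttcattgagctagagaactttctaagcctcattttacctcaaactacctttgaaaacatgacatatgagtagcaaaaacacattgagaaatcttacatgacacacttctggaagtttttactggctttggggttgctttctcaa
Clec7a, chr6:129472780-129473029, minus strand: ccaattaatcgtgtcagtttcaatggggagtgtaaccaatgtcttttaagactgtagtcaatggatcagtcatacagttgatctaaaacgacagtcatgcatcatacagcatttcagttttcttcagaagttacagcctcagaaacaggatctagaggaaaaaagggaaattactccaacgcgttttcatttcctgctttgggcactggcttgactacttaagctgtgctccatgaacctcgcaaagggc
In Clec12a the C/EBP letters, TTGCGCAA, begin 140 bases before the start and read the same on both strands. They stand between the AP-1 letters at 213 bases and the PU.1 letters at 61 bases. In Clec4e the C/EBP letters begin 66 bases before the start and match on the opposite strand, and in Clec4d the PU.1 letters begin 241 bases before it, also on the opposite strand. The RefSeq start of Clec12a lies inside the GENCODE gene, downstream of its first base. A match of letters is a description and does not show binding.

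TPM is a level relative to transcript length and to the library total, so the 8 genes can be compared with each other within a library. At 0h the 8 genes summed to 1.54, 1.48 and 0.490 TPM in the 3 libraries. At 1h the sums were 1.22, 1.21 and 1.27 TPM, within the range of 0h. They were 11.6, 11.3 and 13.4 TPM at 12h and 52.8, 55.2 and 47.1 TPM at 48h, with no overlap between 0h, 12h and 48h. Clec7a made up 71.2% to 71.9% of the sum at 48h and 61.7% to 77.6% of it at 0h. In bulk RNA, a larger share of cells that express a gene and more RNA of that gene per cell cannot be told apart.

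**Figure D1:**
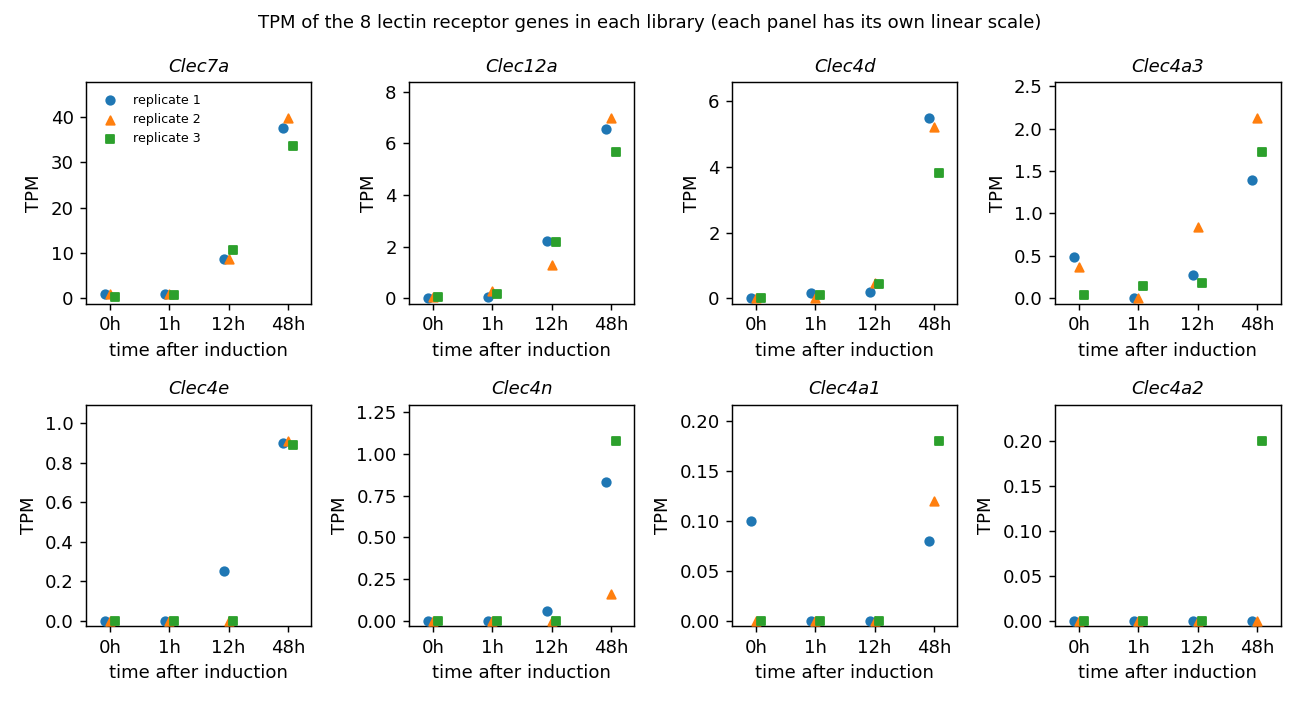
TPM (vertical axis, linear, a separate scale for each gene) in each of the 12 libraries against time after induction (horizontal axis, categories). Each symbol is 1 library. Clec7a reaches 33.5 to 39.7 TPM at 48h, while Clec4a2 is listed at 0 in 11 of the 12 libraries.

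Clec7a, which encodes the β-glucan receptor dectin-1, was the most abundant of the 8 at every time. It measured 0.95, 1.07 and 0.38 TPM at 0h and 0.98, 0.91 and 0.82 TPM at 1h. It measured 8.61, 8.68 and 10.59 TPM at 12h and 37.54, 39.70 and 33.53 TPM at 48h. The 0h and 1h libraries overlapped, and every 12h library lay above both and below every 48h library. On the log2(TPM + 0.1) scale the difference from 0h was 0.26 ± 0.29 (SE) for 1h, 3.48 ± 0.29 for 12h and 5.46 ± 0.29 for 48h, with limma adjusted p of 0.539, 5.84e-06 and 5.84e-08. By its mean at 48h, Clec7a ranked 337 among the 16415 genes tested.

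Clec12a, which encodes the inhibitory receptor MICL, followed the same course at a lower level. Its libraries measured 0, 0.04 and 0.07 TPM at 0h and 0.06, 0.30 and 0.19 TPM at 1h. They measured 2.21, 1.31 and 2.18 TPM at 12h and 6.54, 6.97 and 5.67 TPM at 48h. All 12h libraries were above all 1h libraries and below all 48h libraries, and the 0h and 1h libraries overlapped. The difference from 0h on the log2(TPM + 0.1) scale was 0.99 ± 0.36 for 1h, 3.87 ± 0.36 for 12h and 5.60 ± 0.36 for 48h (limma adjusted p = 0.0661, 1.55e-05 and 2.84e-07). The 1h value stood near the threshold, and it passed without replicate 1 of 1h (1.35, adjusted p = 0.0252).

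Clec4d, which encodes MCL, a partner of Mincle, rose mainly after 12h. It was listed at 0 in all 3 libraries of 0h and at 0.18, 0 and 0.11 TPM at 1h. It measured 0.21, 0.46 and 0.44 TPM at 12h and 5.47, 5.20 and 3.81 TPM at 48h. The 12h libraries lay above all those of 0h and 1h, but none reached 1 TPM. The fitted difference from 0h was 0.85 ± 0.40 for 1h, 2.18 ± 0.40 for 12h and 5.61 ± 0.40 for 48h on the log2(TPM + 0.1) scale (limma adjusted p = 0.140, 0.00187 and 6.28e-07), and it depends on the pseudocount because 0h is listed at 0. The 1h difference passed without replicate 2 of 1h (1.28, adjusted p = 0.0386). Between 12h and 48h, where both groups hold values above 0, Clec4d rose by 3.42 ± 0.40 (adjusted p = 8.15e-05).

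Clec4e and Clec4n, which encode Mincle and dectin-2, were at or near 0 until 12h. Clec4e was listed at 0 in all 6 libraries of 0h and 1h, at 0.25, 0 and 0 TPM at 12h and at 0.90, 0.91 and 0.89 TPM at 48h. Clec4n was listed at 0 in the same 6 libraries, at 0.06, 0 and 0 TPM at 12h and at 0.83, 0.16 and 1.08 TPM at 48h. Replicate 2 of 48h held less Clec4n than the other two, and the same library was the highest for Clec7a, Clec12a and Clec4a3. For both genes every 48h library was above every earlier one, and both called differences from 0h (limma, 3.32 ± 0.48 with adjusted p = 0.000159 for Clec4e, 2.72 ± 0.55 with adjusted p = 0.00167 for Clec4n) depend on the pseudocount. Their mean over the 9 earlier libraries was 0.0278 TPM for Clec4e and 0.00667 TPM for Clec4n, below the 0.1 TPM that a gene needed to be tested. They were therefore tested only because of their 48h libraries, in which they had to be higher, and without replicate 3 of 48h Clec4n was no longer tested.

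The 3 genes of the DCIR group were low throughout. Clec4a3 measured 0.49, 0.37 and 0.04 TPM at 0h and 0, 0 and 0.15 TPM at 1h. It measured 0.28, 0.84 and 0.18 TPM at 12h and 1.40, 2.12 and 1.72 TPM at 48h. The first 3 times overlapped, and all 48h libraries stood above them. Clec4a3 differed from 0h by 2.43 ± 0.62 at 48h (limma adjusted p = 0.00713) and by 0.46 ± 0.62 at 12h (adjusted p = 0.619), and its 1h difference was -1.32 ± 0.62 (adjusted p = 0.136), which was called lower without replicate 3 of 0h (-1.96, adjusted p = 0.0412). With a pseudocount of 0.01 the 48h difference missed the threshold (3.03, adjusted p = 0.0539). Clec4a1 measured 0.10 TPM in replicate 1 of 0h, 0 in the other 8 libraries up to 12h, and 0.08, 0.12 and 0.18 TPM at 48h. Clec4a2, which encodes the inhibitory receptor DCIR, was listed at 0 in 11 libraries and at 0.20 TPM in replicate 3 of 48h. Neither reached a mean of 0.1 TPM, so neither was tested.

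Of the 8 genes, 6 were tested. None was called higher at 1h, when 16.7% of all 16415 genes tested were (adjusted p under 0.05 and log2 difference beyond 1), or 4.05% of genes after median-of-ratios scaling. Clec4e and Clec4n could not be called at 1h, as both were listed at 0 in all libraries of 0h and 1h. Clec7a, Clec12a and Clec4d were called higher at 12h, against 17.7% of all genes. All 6 were called higher at 48h, against 13.5% of all genes, and none was called lower, against 23.1%, but this count holds Clec4e and Clec4n, which had to be higher to be tested. From 1h to 12h the same Clec7a, Clec12a and Clec4d rose (5.49% of all genes). From 12h to 48h the 6 rose (3.55% of all genes, or 7.87% after that scaling). That count also holds Clec4e and Clec4n, which had to be higher at 48h to be tested. The last comparison had the largest difference for Clec4d (3.42), and smaller ones for Clec4e (2.72), Clec4n (2.49), Clec7a (1.98), Clec4a3 (1.97) and Clec12a (1.73). The Clec4a3 call from 12h to 48h was lost without any one library of 12h or 48h other than replicate 2 of 12h. The Clec4d call from 1h to 12h was lost without replicate 2 or 3 of 1h or of 12h. It was also lost with a pseudocount of 1 or 0.01, with no filter and with a mean TPM of at least 1 required. A replicate block, a model of only the 6 libraries compared and a log2 difference beyond 2 lost it too.

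**Figure D2:**
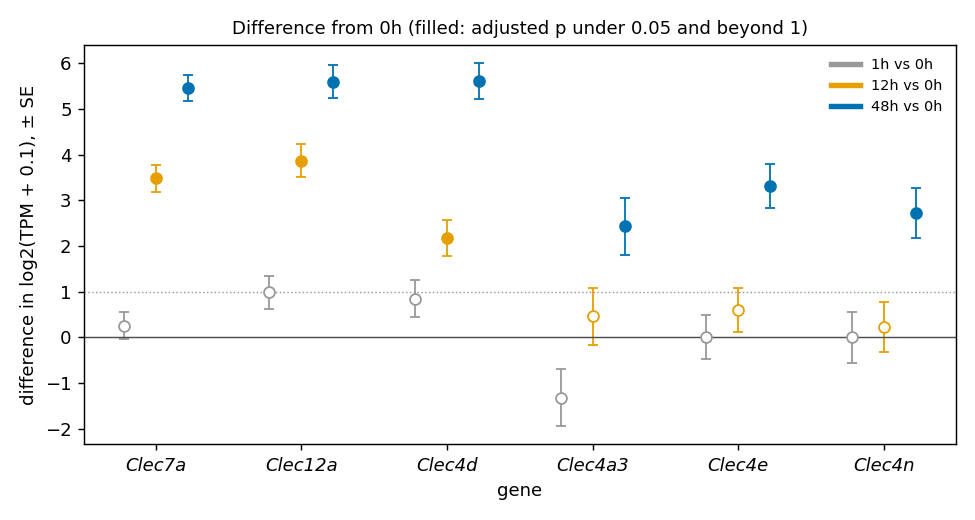
Difference from 0h in log2(TPM + 0.1) (vertical axis, with the limma SE as bars) for the 6 genes tested (horizontal axis), for 1h, 12h and 48h. Filled points passed adjusted p under 0.05 and a difference beyond 1 (dotted line), which were 3 of the 6 genes for 12h and 6 for 48h.

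The level of the whole transcriptome in TPM moved with time. The transcripts CT010467.1 and AY036118 took 70.3% to 82.9% of all TPM, and the 20 most abundant genes left to all others 87596 to 91905 TPM in the libraries of 0h. The 1h libraries left 122920 to 131784 TPM, those of 12h left 90879 to 127273 TPM and those of 48h left 58343 to 94692 TPM. Over all genes the log2(TPM + 0.1) difference from 0h had a median of 0.59 for 1h, 0.34 for 12h and -0.18 for 48h. Of the calls of 1h, 93.9% were higher, or 58.6% once libraries were scaled by median of ratios. The same shares were 75.5% and 56.0% for 12h, 36.9% and 53.0% for 48h, 34.1% and 58.2% between 1h and 12h, and 13.0% and 50.3% between 12h and 48h. Under that scaling Clec7a differed from 0h by 3.16 at 12h and 5.89 at 48h, Clec12a by 3.61 and 6.07, and Clec4d by 2.01 and 6.12, all called. The 1h difference of Clec7a changed sign, from 0.26 to -0.32, and passed the test on neither scale (adjusted p = 0.485 after scaling).

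The 8 genes differed in how much of their 48h level was present at 12h. The mean at 12h was 29.7% of that at 48h for Clec12a, 25.2% for Clec7a and 24.8% for Clec4a3. It was 9.26% for Clec4e, 7.67% for Clec4d and 2.90% for Clec4n. These shares are a description, chosen after the values were seen. A ratio of 2 genes within 1 library is nearly free of the library's scaling, except through the 0.1 TPM added to both genes. That addition weighs on Clec4d at 12h, which measured 0.21 to 0.46 TPM. With it, the log2 ratio of Clec4d to Clec7a was -4.81, -3.97 and -4.31 at 12h and -2.76, -2.91 and -3.10 at 48h, without overlap. The ratio of Clec12a to Clec7a was -1.91, -2.64 and -2.23 at 12h and -2.50, -2.49 and -2.54 at 48h, and those ranges overlapped.

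At 48h the order of the levels was Clec7a, Clec12a, Clec4d, Clec4a3, Clec4e, Clec4n, Clec4a1 and Clec4a2. Clec7a stood apart, its lowest library at 33.5 TPM against 6.97 TPM in the highest of Clec12a. Clec12a and Clec4d were closest among those that did not overlap, with 5.67 TPM in the lowest library of the first and 5.47 TPM in the highest of the second. Clec4d and Clec4a3 (3.81 against 2.12 TPM), and Clec4a3 and Clec4e (1.40 against 0.910 TPM), did not overlap either. Clec4e and Clec4n overlapped, as did Clec4n and Clec4a1, and Clec4a1 and Clec4a2.

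Over the 12 libraries, Pearson's r with Clec7a on the log2(TPM + 0.1) scale was 0.97 for Clec12a, 0.93 for Clec4d, 0.84 for Clec4e, 0.82 for Clec4a3, 0.76 for Clec4n, 0.59 for Clec4a1 and 0.40 for Clec4a2. These values describe a shared course over 4 times in the same libraries, and low genes near 0 limit them.

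Between the genes of each cluster, other genes were nearly silent. In the span of the Clec4 genes lie 7 further genes, of which 6 were at 0 in every library and the highest, Clec4a4, reached 0.130 TPM. In the span from Clec12a to Clec7a lie 5 further genes, of which 1 was at 0 and the highest, Gm43914, reached 0.180 TPM. None of the 12 was tested. Of 24 other listed lectin receptor genes of chromosome 6, 5 were tested and 2 rose at 48h, against 13.5% of all genes. The median difference of the 5 was 1.26 (the median of all genes was -0.18). Clec2d, which encodes the NK receptor ligand Clr-b, rose by 5.44 ± 0.42 (limma adjusted p = 1.02e-06), from 0.27, 0.11 and 0.67 TPM to 16.33, 20.09 and 14.57 TPM. Clec5a, an activating receptor that signals with DAP12, rose by 2.34 ± 0.52 (adjusted p = 0.00316), from 0 in all 3 libraries to 0.97, 0.25 and 0.25 TPM. Like Clec4e and Clec4n, Clec5a was tested only because of its 48h libraries (mean of 0.0167 TPM before), in which it had to be higher. Olr1, the receptor for oxidised low-density lipoprotein, was high at 12h and low again at 48h, at 3.05, 1.45 and 1.62 TPM against 0.03, 0.08 and 0.26 TPM (difference -3.32 ± 0.50, adjusted p = 0.000428), a course that none of the 8 members followed.

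On other chromosomes, 7 of 20 listed lectin receptor genes were tested. At 48h, 3 of the 7 were higher and 1 lower, against 13.5% and 23.1% of all genes, with a median of 0.48. Colec12, a scavenger receptor, rose by 1.80 ± 0.20 (limma adjusted p = 2.36e-05) and Cd209c by 1.11 ± 0.35 (adjusted p = 0.0229). Cd72, an inhibitory receptor of B cells, fell by 1.67 on the log2 scale (SE 0.33, adjusted p = 0.00150).

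Fcer1g, the adaptor of 3 of the activating members, was called higher than 0h at 12h and at 48h, as Clec4d was. Clec4e and Clec4n were called higher than 0h at 48h only. Of 11 adaptor and kinase genes tested, 6 were higher at 48h, against 13.5% of all genes. None was lower, against 23.1%, and the median was 1.68. At 1h, when no lectin receptor of the 8 was called, 4 of the 11 were already higher, against 16.7% of all genes. After median-of-ratios scaling 2 were higher and 1 was lower at 1h, against 4.05% and 2.86%. Fcer1g, which serves Clec4n, Clec4d and Clec4e, was at 0 in the 3 libraries of 0h, at a mean of 0.630 TPM at 12h and at 12.5 ± 1.14 TPM (SD, n = 3) at 48h, a fitted difference of 6.97 ± 0.57 (limma adjusted p = 1.74e-06). Tyrobp, the DAP12 adaptor of other receptors, went from a mean of 0.103 TPM at 0h to 14.8 TPM at 12h and 64.3 TPM at 48h, a difference of 8.59 ± 0.49 (adjusted p = 1.03e-07). At 48h the mean of Fcer1g was above the 5.47 TPM of the highest library of Clec4d, the most abundant of the 3 receptors that use it. Lyn, a SRC family kinase, rose by 2.21 ± 0.15 and Prkcd, the kinase that acts on CARD9, by 2.44 ± 0.20 (adjusted p = 3.65e-07 and 1.84e-06), and Tec and Hcst rose too. Syk, the kinase through which these receptors signal, measured 4.24 ± 0.287 TPM at 0h and 4.77 ± 0.472 TPM at 48h (SD, n = 3) and was not called (0.16 ± 0.16, adjusted p = 0.462). After median-of-ratios scaling its difference was 0.57 with adjusted p = 0.00220, still below the fold threshold.

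**Figure D3:**
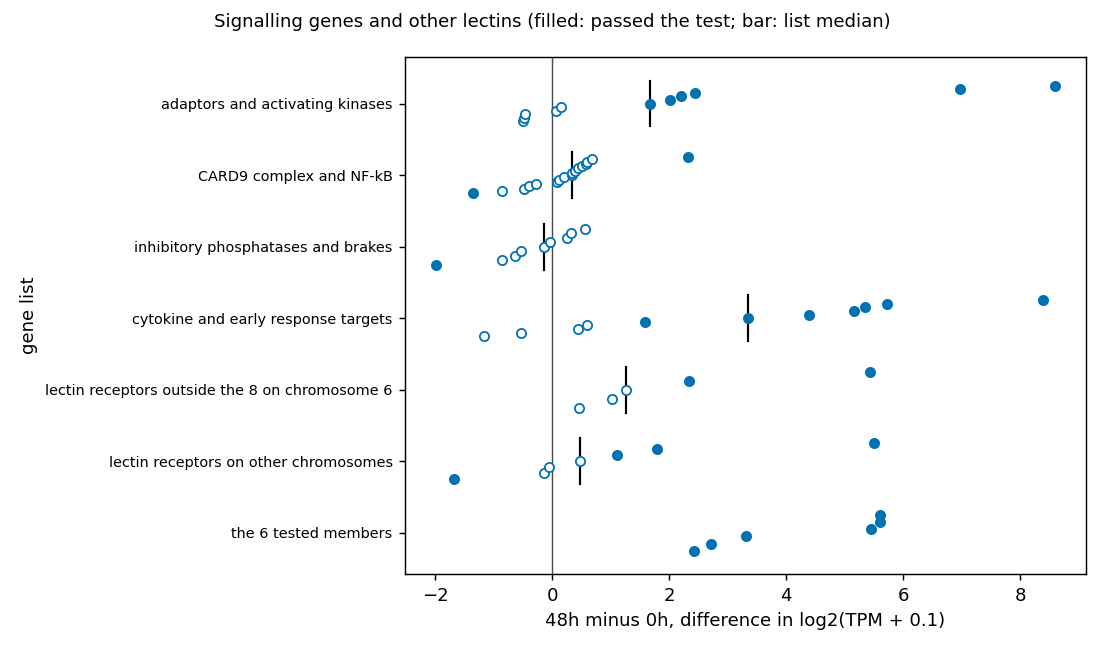
Difference from 0h to 48h in log2(TPM + 0.1) (horizontal axis) of every tested gene of 6 gene lists and of the 6 tested lectin receptors (vertical axis, 1 row each). Filled points passed the test and bars are list medians, which run from -0.14 for the inhibitory phosphatases to 3.35 for the cytokine and early response targets.

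Below SYK, few genes of the CARD9 and NF-κB path changed at 48h. Of 17 tested, 1 was higher and 1 lower, against 13.5% and 23.1% of all genes, with a median of 0.34. Card9 itself was at 0 in the 6 libraries of 0h and 1h, at 0.24, 0.59 and 0.60 TPM at 12h and at 0.07, 0.24 and 2.06 TPM at 48h. It was called at 48h (2.32 ± 0.75, limma adjusted p = 0.0252), with most of its 48h level in replicate 3. Tab1, a partner of the kinase TAK1, fell by 1.35 on the log2 scale (SE 0.41, adjusted p = 0.0182). At 12h, 5 of the 17 were higher and none lower, against 17.7% and 5.75% of all genes: Card9, Ikbkb, Malt1, Nfkb2 and Nfkbia. Malt1, the protease that acts with CARD9 and BCL10, was 1.37 ± 0.29 higher at 12h (adjusted p = 0.00420).

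Of 9 inhibitory phosphatases and brakes tested, none was higher and 1 was lower at 48h, against 13.5% and 23.1% of all genes. Their median was -0.14. Inpp5d, the lipid phosphatase SHIP1, fell by 1.98 on the log2 scale (SE 0.32, limma adjusted p = 0.000395), from 28.7 ± 1.56 to 7.56 ± 2.72 TPM (SD, n = 3). Ptpn6, the SHP-1 phosphatase that binds the inhibitory motif of MICL, measured 19.0 ± 2.00 TPM at 0h and 18.7 ± 3.10 TPM at 48h (-0.03 ± 0.18, adjusted p = 0.924). In between it was lower at 1h (8.19 ± 1.08 TPM, -1.21 ± 0.18, limma adjusted p = 0.00102) and measured 30.1 ± 4.60 TPM at 12h, higher than at 1h (1.87 ± 0.18, adjusted p = 4.02e-05).

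Of 17 listed genes that these receptors are known to induce when engaged, 11 were tested. At 48h, 7 of the 11 were higher and none was lower, against 13.5% and 23.1% of all genes, with a median of 3.35. At 12h, 10 of 11 were higher (17.7% of all genes), or 7 of 11 after median-of-ratios scaling (12.1%). Among the listed genes too low to be tested, Cxcl1, Cxcl2 and Il12b were at 0 in every library. No ligand was added in this design, so the values are those of cells in culture. Il1b rose by 8.39 ± 0.20 (limma adjusted p = 2.22e-10), from 0 at 0h to 33.6 ± 4.37 TPM (SD, n = 3), and was at a mean of 1.40 TPM at 1h, when no lectin receptor of the 8 was called. Ptgs2, which makes prostaglandins, rose by 5.73 ± 0.30 and Ccl3, a chemokine, by 5.35 ± 0.34 (adjusted p = 5.78e-08 and 2.33e-07). Ccl4 went from 0 to 3.71 ± 1.72 TPM (5.16 ± 0.46, adjusted p = 3.52e-06). The cytokine Il6 rose by 3.35 ± 0.32 and the inflammasome sensor Nlrp3 by 4.39 ± 0.51 (adjusted p = 5.51e-06 and 2.75e-05). Il6 and Il23a, 2 of the 7, were tested only because of their 48h libraries, in which they had to be higher. Tnf was higher at 12h (1.15 ± 0.20, adjusted p = 0.00126) and not called at 48h (0.44 ± 0.20, adjusted p = 0.0994).

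Marker genes of Pre-B cells, macrophages and other cell types were summed, and these sums did not all move at the times of the receptors. The summed TPM of 12 Pre-B markers ranged from 306 to 346 before induction, then from 217 to 235 (1h), 67.0 to 89.3 (12h) and 30.0 to 41.9 (48h). Of the 12, 11 were called lower at 48h, against 23.1% of all genes. The sum of 10 macrophage markers was 3.66 to 4.94 TPM before induction, 235 to 334 TPM by 12h and 239 to 321 TPM by 48h. All 8 that were tested were called higher at 48h, against 13.5% of all genes. Of those too low to be tested, Mertk was at 0 in every library and Adgre1 measured 0, 0 and 0.29 TPM at 48h. The macrophage sums were carried by the lysozyme gene Lyz2, at a mean of 207 TPM at 12h and 109 TPM at 48h. From 12h to 48h, 5 of the 8 tested macrophage markers were called higher and none lower, against 3.55% and 23.8% of all genes. Their median was 2.72 (-0.62 over all genes), so genes outside the lectin receptors also rose after 12h. Msr1 was among the 8 only because of its 48h libraries, in which it had to be higher. The sum of 10 neutrophil markers was 0 to 0.540 TPM before induction, 17.7 to 23.9 TPM by 12h and 32.8 to 45.1 TPM by 48h. At 48h, 3 of 4 tested were called higher, against 13.5% of all genes. The defining markers Mpo and S100a9 were at 0 in all libraries. From 12h to 48h Mmp8 rose from a mean of 6.93 to 35.9 TPM and Camp fell from 8.69 to 0.363 TPM, both called, so the sum does not describe every marker. Markers of dendritic cells summed to at most 1.86 TPM with Cd209a at 0. Of the 3 tested, Batf3 and Itgax were called higher at 12h, against 17.7% of all genes. Itgax was also called higher at 48h (3.32 ± 0.47, limma adjusted p = 0.000124), against 13.5% of all genes. Markers of T and NK cells summed to at most 0.180 TPM with 6 of 8 at 0. The part of the neutrophil genes in the rise of the lectin receptors was not tested.

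By the course over the 12 libraries, 12268 genes that reached 1 TPM in some library were compared with the mean standardized log2(TPM + 0.1) of the 6 tested receptors. The highest Pearson's r were those of Ifi207 (0.993), Slfn1 (0.990), Mmp12 (0.989), Wfdc17 (0.989) and Ifit3 (0.988). Mmp12, the macrophage elastase, was at 2.72, 2.62 and 2.83 TPM at 12h and at 490, 575 and 409 TPM at 48h. The interferon-inducible genes Ifi207 and Ifit3 had means of 0.727 and 0.593 TPM at 12h and 37.7 and 28.7 TPM at 48h, near the level of Clec7a at 48h. These r are a description over 4 times in the same libraries.

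Promoter Capture Hi-C gave 1 list for each time from 2 merged replicates, with no replicates to test. Interactions were taken from the captured (bait) fragments that hold a GENCODE transcript start of a member. There were 42 for 0h, 63 for 1h, 74 for 12h and 113 for 48h, among 131598 to 144072 interactions per list. The bait fragment of Clec12a (chr6:129331244-129346422) does not hold the RefSeq promoter shown above. Clec7a held 26 at 0h and 60 at 48h. The fragment chr6:122892910-122903585, itself a bait, was picked because it was listed with the most members at 48h, namely 5. Earlier lists gave it fewer members, without a steady rise: 2 (0h), 1 (1h) and 3 (12h). Because of how it was picked, its counts do not describe a typical fragment.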

How the data were processed

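TPM of 12 RNA-seq libraries and interaction lists of Promoter Capture Hi-C for 4 times were used, and Hi-C was not. Per the labels and methods, the authors trimmed single-end reads with Trim Galore 0.6.2, mapped them to mm10 with HISAT2 2.1.0 and deposited TPM from RSEM. TPM keep no depth, so intervals from counts were not made. The authors merged 2 Promoter Capture Hi-C replicates and called interactions with CHiCAGO at a score of at least 5, and the deposited 0h list holds that score. Later deposited lists hold other whole numbers, which were not used. Interactions were counted as unordered pairs with the bait of a member on either side, and Clec4a2 had no bait.

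Of all genes, 16415 had a mean of 0.1 TPM or more over the libraries and entered a single limma 3.58.1 model (R 4.3.3, moderated with a trend) of log2(TPM + 0.1) on time. The model had been tested on simulated data in which only genes with a positive mean log2(TPM + 0.1) at 0h were changed. All members were lower than that at 0h, so the simulation does not cover genes at their level. A gene was called where its p, adjusted by Benjamini-Hochberg, was under 0.05 and its log2 difference beyond 1, a fold change of 2. Tables used pandas 2.3.3 and numpy 2.4.6, and promoters came from RefSeq (GRCm38.p6). Groups came from the labels. The members and gene lists were chosen with earlier results of these data known. In each list the text names up to 4 called genes with the largest change at 48h, plus Syk, Card9, Fcer1g, Tyrobp and Ptpn6, except 1 gene that is not reported here. Tec, Hcst, Ikbkb, Malt1, Nfkb2, Nfkbia, Olr1, Il6, Nlrp3, Tnf, Il23a, Cxcl1, Cxcl2, Il12b, single marker genes, Clec4a4 and Gm43914 were named after their values were seen. Alternatives varied the pseudocount, filter, scaling, trend, replicate block, threshold, libraries and interaction score.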

Additional observations from a re-analysis of the deposited data

How the results depend on the processing

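The calls of Clec7a and Clec12a at 12h and 48h and of Clec4d at 48h, all against 0h, held in every alternative run, and that of Clec4d at 12h in all but a pseudocount of 1, with which Clec4e and Clec4n were also not called at 48h. At 1h against 0h, where none of the 6 tested receptors was called, 1 was called higher with a pseudocount of 0.01 (Clec12a), and leaving out 1 library gave 0 to 1 called higher (Clec12a without 1h replicate 1, Clec4d without 1h replicate 2), with Clec4a3 called lower without 0h replicate 3. With a mean TPM of at least 1 required, 3 receptors were tested and 3 were called at 48h against 0h and at 48h against 12h. From 12h to 48h, 3 instead of 6 were called with a pseudocount of 1 (Clec7a, Clec12a and Clec4d), 4 with a pseudocount of 0.01 (without Clec12a and Clec4a3) and 3 with a log2 difference beyond 2 (Clec4d, Clec4e and Clec4n). With no filter, 6 were called from 12h to 48h, with Clec4a1 in place of Clec4a3. The 12h difference of Clec4a3 from 0h, not called in any alternative, ran from -0.18 (without 0h replicate 3) to 0.86 (without 0h replicate 1) when 1 library was left out, and was -0.05 without 12h replicate 2. The 48h difference of Clec4a3 was 3.03 (limma adjusted p = 0.0539) with a pseudocount of 0.01. Interactions of the members at 0h fell from 42 to 7 at a score of at least 10. Same-numbered libraries correlated above 0.1 in 7 of 18 pairs, against 1 of 36 pairs with different numbers. Of the 12 libraries, 7 correlated best with their own number. The labels state no pairing, so the main model treated the samples as unpaired, although same-numbered libraries were more alike. With a replicate block 0, 3 and 6 receptors were called at 1h, 12h and 48h, 6 from 12h to 48h and 2 instead of 3 from 1h to 12h. The paper reports sequencing depth, which was not used here, and TPM keep none. A gene listed at 0 was therefore not detected, which does not show that it was absent.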
